A study of Mus musculus with 15 samples.

Results

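Imprinted genes, which are expressed from only the maternal or the paternal copy, and the regions that control them were followed across 15 mouse libraries of reduced representation bisulfite sequencing. In this assay the methylation level of a CpG is the percentage of its reads that bisulfite left unchanged. The members were a list of 37 imprinted genes, each taken with 5 kb upstream of its start, on mouse build mm9. CpGs counted only where at least 10 reads covered them in all 15 libraries, and this left 404 CpGs in 33 of the 37 genes. They lay in 103 windows of 1 kb, of which 53 held at least 3 such CpGs and were tested, out of 29251 tested windows in the genome. Of these 53 windows, 16 had a mean level of 35% to 65% over the 4 wild type libraries and were marked as likely to be methylated on a single parental allele. That marking used wild type values, so the wild type levels of the 16 windows are a description, and so are their differences from wild type.

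The cells were haematopoietic progenitors sorted from C57BL/6 bone marrow, and each genotype below is given as labelled. The DM group (Mx1-cre+;Dnmt3a-/-;Idh2 R140Q, 3 libraries) was malignant cells carrying the surface markers of megakaryocyte-erythroid progenitors (MEP), that is Lin-cKit+, Sca1-, CD34-, Cd16/32-. The KO group (Mx1-cre+;Dnmt3a-/-) and the IDH2 group (Mx1-cre-;Dnmt3af/f;Idh2 R140Q) had 2 libraries each of MEP and of granulocyte-macrophage progenitors (GMP), sorted as Lin-cKit+, Sca1-, CD34+, Cd16/32+. The wild type group, WT, was Mx1-cre+;Dnmt3af/f, again with 2 MEP and 2 GMP libraries. DM was therefore compared with the MEP groups. Mx1-cre acts in blood-forming and other cells that respond to interferon. WT thus carries Cre and floxed Dnmt3a, whereas IDH2 lacks Cre. The labels number the libraries as biological replicates without saying that they came from separate animals, so p-values may measure only the spread between samples. An inbred strain gives no sequence difference between the parental alleles. Neither the parental origin of a methylated read nor the share of cells that carry it can be told apart from these levels.

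At most imprinted loci a germline differentially methylated region receives its methylation in the egg or the sperm and keeps it on that allele through the divisions of the embryo. DNMT1 copies the mark at each division, and ZFP57 holds it in place by binding a methylated TGCCGC motif. DNMT3A places such marks in germ cells, while IDH2 R140Q makes 2-hydroxyglutarate, which inhibits the TET enzymes that oxidise methylated cytosine. Secondary regions, such as those at Igf2, Cdkn1c and the Nesp start of Gnas, gain their allelic methylation after fertilisation.

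The sequences of 9 windows are shown because the results turn on their CpGs, with the measured CpGs in capitals. All are the plus strand of mm9. Grb10 window 1 spans chr11:11926750-11926904 next to an internal start of the gene, and the second Grb10 sequence, chr11:11937592-11937866 (12 of the 26 CpGs of its window), is an intron stretch by an upstream start. Its window is named the Grb10 gene start below, although the annotated gene begins in the next window, chr11:11938001-11939000. The Rian and Slc38a4 stretches are intronic, at chr12:110852753-110852936 and chr15:96880401-96880542. Both, like Grb10 window 1, are marked windows in which all DM libraries stood above all others.
Grb10 window 1: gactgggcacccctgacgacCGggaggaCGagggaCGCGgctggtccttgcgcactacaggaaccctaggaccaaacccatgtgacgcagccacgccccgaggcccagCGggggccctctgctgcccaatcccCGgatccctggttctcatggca
Grb10 gene start: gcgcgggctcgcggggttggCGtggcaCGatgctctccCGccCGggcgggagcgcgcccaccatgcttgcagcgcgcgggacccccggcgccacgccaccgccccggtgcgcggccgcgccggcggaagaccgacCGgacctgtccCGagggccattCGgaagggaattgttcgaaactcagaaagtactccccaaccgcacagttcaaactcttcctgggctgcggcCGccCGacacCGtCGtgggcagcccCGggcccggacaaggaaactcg
Rian: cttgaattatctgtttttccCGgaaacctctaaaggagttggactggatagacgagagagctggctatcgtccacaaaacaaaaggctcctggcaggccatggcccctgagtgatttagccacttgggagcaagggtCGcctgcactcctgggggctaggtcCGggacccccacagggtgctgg
Slc38a4: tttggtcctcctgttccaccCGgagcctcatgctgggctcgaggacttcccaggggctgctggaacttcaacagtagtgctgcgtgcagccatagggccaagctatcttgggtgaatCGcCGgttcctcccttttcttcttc
The next pair, in an Igf2 intron (chr7:149850252-149850313) and in Rasgrf1 (chr9:89805079-89805275), had at most 16.7% (Igf2) and 7.69% (Rasgrf1) in any library outside DM. Nap1l5 (chr6:58856608-58856783) and Mkrn3 (chr7:69564054-69564211) are coding and showed a lower and a higher level in DM. The Mkrn3 stretch holds TGCCGC or its reverse complement GCGGCA at 3 places. The marked window shared by Commd1 and Zrsr1 (chr11:22871882-22872020) is given as one that was not called in any comparison.
Igf2: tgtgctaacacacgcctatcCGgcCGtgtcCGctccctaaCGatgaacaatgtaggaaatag
Rasgrf1: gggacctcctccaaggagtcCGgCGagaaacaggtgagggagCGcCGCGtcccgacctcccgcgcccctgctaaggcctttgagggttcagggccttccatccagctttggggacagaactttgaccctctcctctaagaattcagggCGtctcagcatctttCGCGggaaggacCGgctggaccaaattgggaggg
Nap1l5: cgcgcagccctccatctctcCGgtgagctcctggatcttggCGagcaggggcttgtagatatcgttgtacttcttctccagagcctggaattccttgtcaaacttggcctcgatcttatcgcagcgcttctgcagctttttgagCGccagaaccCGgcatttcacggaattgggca
Mkrn3: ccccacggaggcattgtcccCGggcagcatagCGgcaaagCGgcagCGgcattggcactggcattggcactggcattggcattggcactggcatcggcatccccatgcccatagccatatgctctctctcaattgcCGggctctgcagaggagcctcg
Commd1 and Zrsr1: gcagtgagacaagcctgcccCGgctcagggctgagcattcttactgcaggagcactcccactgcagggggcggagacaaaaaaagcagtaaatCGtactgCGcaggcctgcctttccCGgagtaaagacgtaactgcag

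Libraries held 19306705 to 35204906 reads over cytosines, and their median depth at the common CpGs was 30 to 51 reads. Reads in a 1 kb window of Dnmt3a on chromosome 12 (3912001 to 3913000) came to 0 to 0.143 per 1000000 reads in DM, 0.422 to 1.85 in KO, 0 to 1.19 in IDH2 and 6.54 to 8.21 in WT. The IDH2 libraries, whose labels give floxed Dnmt3a without Cre, were thus low there as well, so this depth does not check the knockout. Per 1000000 autosomal reads, the Y chromosome had 199 to 386 in DM, KO and IDH2 and 54.0 to 57.5 in WT. X chromosome reads came to 1.17% to 1.47% of autosomal reads in DM, KO and IDH2 and 2.21% to 2.25% in WT. Every contrast with WT is also a contrast between libraries that differ in this way, and these differences and genotype cannot be told apart. The contrasts among DM, KO and IDH2 do not involve WT. DM was the only group labelled malignant, so genotype and malignancy cannot be told apart in any DM contrast. IDH2 also differs from DM and KO in lacking Cre.

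All 37 genes can be accounted for. Mest, Usp29, Ndn and Phlda2 had no CpG at the required depth. Plagl1, Snrpn, H19, Slc22a18, Meg3 and Dcn had only windows of 1 or 2 CpGs, which were not tested. Of the 27 genes with a tested window, 14 held a marked one and 13 did not. Of 19 genes with a known germline region, 15 were tested and 11 held a marked window. Among 10 genes with a secondary or distant control region 7 were tested and 3 were marked, and among the 8 other genes 5 were tested and none was marked. The marked share was 30.2% of the imprinted windows and 5.08% of all tested windows (1487). The marked windows held 85 CpGs, 62 of which had a wild type mean of 35% to 65% on their own. Only 1 of 3 CpGs did so at Rian, Grb10 window 2, Gnas window 2 and the second Impact window, and 2 of 5 at Magel2. The intermediate level of these windows is thus partly an average of unlike CpGs.

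Just inside the lower bound lay both Impact windows (37.5% each over the 4 WT libraries) and a Gnas window (38.0%), and just outside it a second Commd1 and Zrsr1 window (30.3%), the Gnas exon 1A window (29.6%) and a Cdkn1c window (24.4%). Just inside the upper bound lay Magel2 (63.5%), Rian (61.7%) and Slc38a4 (58.5%), and just outside it Cdkn1c (68.2%), a Kcnq1 intron (73.2%) and Nap1l5 (74.7%).

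The average level of the marked windows was highest in DM and lowest in KO MEP. Averaged over the 16 windows, levels were 55.7% ± 2.05 in DM (SD, n = 3), 42.1% ± 1.81 in KO MEP, 44.4% ± 3.32 in IDH2 MEP and 45.8% ± 1.81 in WT MEP (SD, n = 2 each). In GMP they were 44.3% ± 5.75 in KO, 50.9% ± 0.200 in IDH2 and 46.4% ± 2.76 in WT. The same average over all 1487 windows with a wild type mean of 35% to 65% was 56.2% ± 1.36 in DM, 48.4% ± 5.52 in KO MEP, 56.9% ± 0.293 in IDH2 MEP and 51.4% ± 1.96 in WT MEP. In GMP it was 47.8% ± 1.59 in KO, 58.5% ± 2.40 in IDH2 and 51.1% ± 0.341 in WT. No p is given for these averages, since the windows were chosen as a set.

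The marked windows can be counted by whether they kept an intermediate level, which was not tested. In DM 9 of 16 group means stayed between 35% and 65%, 6 were above and 1 was below. In KO MEP 8 stayed, 2 were above and 6 below. In IDH2 MEP 13 stayed and 3 were below, and in WT MEP, which helped to choose them, 15 stayed. In GMP 9 stayed in KO, 13 in IDH2 and 13 in WT. Single libraries kept 7, 7 and 9 in DM, 7 and 9 in KO MEP, 11 and 8 in IDH2 MEP, and 11 and 13 in WT MEP, so that DM, KO MEP and IDH2 MEP overlapped. Of all 1487 windows 50.1% stayed in DM, 55.9% in KO MEP and 54.9% in IDH2 MEP, against 56.3%, 50.0% and 81.3% of the marked imprinted windows.

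**Figure D1:**
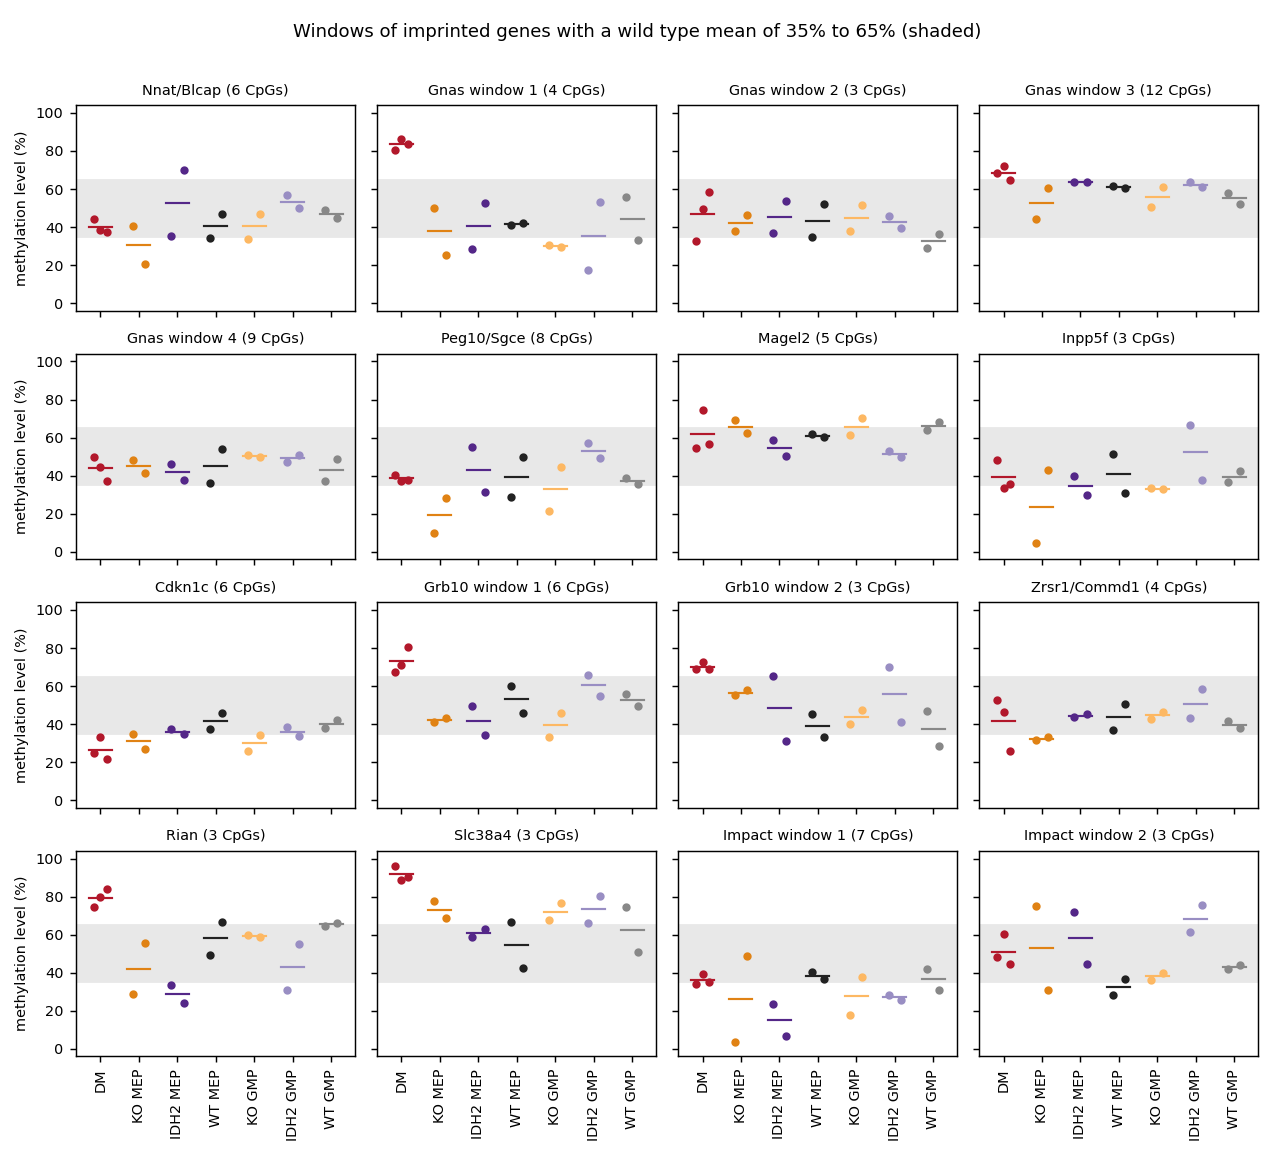
Methylation level (%) of the 16 marked windows in each library (points) with group means (lines), for DM, KO MEP, IDH2 MEP and WT MEP and then the GMP groups; grey shading is the marking range of 35% to 65%. The DM mean was above 65% in Gnas windows 1 and 3, Grb10 windows 1 and 2, Rian and Slc38a4, and below it in the other 10 windows.

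Gnas codes for the stimulatory G protein alpha subunit and has several starts of opposite imprinting. Its window 1 (chr2:174110001-174111000, 4 CpGs) lies on the Nesp side of the locus, where methylation is known on the paternal allele. The level was 80.4%, 86.0% and 83.9% in the DM libraries, 50.0% and 25.5% in KO MEP, 28.4% and 52.7% in IDH2 MEP and 41.1% and 42.0% in WT MEP. The GMP libraries lay between 17.5% and 55.6%, so all 3 DM libraries stood above all 12 others, and each of the 4 CpGs did so too. DM exceeded KO MEP by 45.7 points (adjusted p = 0.00382) and IDH2 MEP by 42.9 points (adjusted p = 0.0119). Without KO MEP replicate 2 the first was 33.5 points (adjusted p = 0.0574), and without IDH2 MEP replicate 1 the second was 30.8 points (adjusted p = 0.0928).

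Window 3 of Gnas (chr2:174123001-174124000, 12 CpGs) lies in a coding exon shortly downstream of another start of the gene. It measured 68.4%, 72.1% and 64.6% in DM, 44.5% and 60.8% in KO MEP, 63.5% and 63.7% in IDH2 MEP, and 61.7% and 60.5% in WT MEP. DM was 15.7 points above KO MEP (adjusted p = 0.0178). That call was lost with limma (adjusted p = 0.190) and edgeR (adjusted p = 0.243), without KO MEP replicate 1 (7.57 points, adjusted p = 0.254) and without DM replicate 2 (13.9 points, adjusted p = 0.0630). Without KO MEP replicate 2 the difference was 23.9 points. Against IDH2 MEP the difference of 4.75 points did not pass (adjusted p = 0.433). Further along, window 4 (chr2:174125001-174126000, 9 CpGs) had 43.8% ± 6.41 in DM, 44.9% ± 4.76 in KO MEP, 42.0% ± 5.85 in IDH2 MEP and 45.2% ± 12.5 in WT MEP. No comparison passed there. Window 2 (chr2:174111001-174112000, 3 CpGs) was close to it, with 46.9% ± 13 in DM and 42.3% to 45.5% as means of the MEP groups. At exon 1A (chr2:174153001-174154000, 3 CpGs), an unmarked germline region, IDH2 libraries held 47.6% and 83.5% in GMP and 42.4% and 45.9% in MEP, KO libraries 31.7%, 33.6%, 25% and 16.3%, and WT libraries 39.4%, 10.2%, 16.7% and 52.0%. DM held 38.5%, 33.3% and 31.2%, within the range of WT.

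Grb10, an adaptor that restrains insulin receptor signalling and growth, has a germline region methylated on the maternal allele at an internal start. Window 1 (chr11:11926001-11927000, 6 CpGs) lies in an intron just upstream of that start. Levels were 67.2%, 71.2% and 80.5% in DM, 41.4% and 43.0% in KO MEP, 49.5% and 34.0% in IDH2 MEP, and 59.9% and 46.0% in WT MEP. All 3 DM libraries exceeded all the others, of which IDH2 GMP replicate 1 was the highest at 66.0%. DM stood 30.8 points above KO MEP (adjusted p = 0.00246) and 31.2 points above IDH2 MEP (adjusted p = 0.00198). The difference from IDH2 MEP was 23.4 points (adjusted p = 0.0638) without IDH2 MEP replicate 2.

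At the upstream starts of Grb10 the DM difference was larger. The window chr11:11937001-11938000 holds 26 CpGs, the most of any imprinted window, of which 7 are in untranslated exons and 19 in introns. DM libraries had 49.0%, 57.6% and 40.1%, while KO MEP had 3.80% and 4.46%, IDH2 MEP 6.76% and 3.44%, and WT MEP 6.66% and 7.04%. The 6 GMP libraries lay between 3.33% and 7.37%. DM exceeded KO MEP by 44.8 points (adjusted p = 1.05e-06), IDH2 MEP by 43.8 points (adjusted p = 2.40e-06) and WT MEP by 42.0 points (adjusted p = 7.71e-07). At 21 of the 26 CpGs every DM library was above all 12 other libraries, with DM means of 6.35% to 90.5% at single CpGs and WT MEP means of 0% to 21.4%. Window 2 (chr11:11938001-11939000, 3 CpGs), at the next annotated start, where the annotated gene begins, was marked. It had 68.8%, 72.7% and 68.8% in DM, 55.1% and 57.7% in KO MEP, 65.2% and 31.2% in IDH2 MEP and 45.4% and 33.0% in WT MEP. Neither the 13.7 points above KO MEP (adjusted p = 0.328) nor the 21.9 points above IDH2 MEP (adjusted p = 0.0921) passed there.

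**Figure D2:**
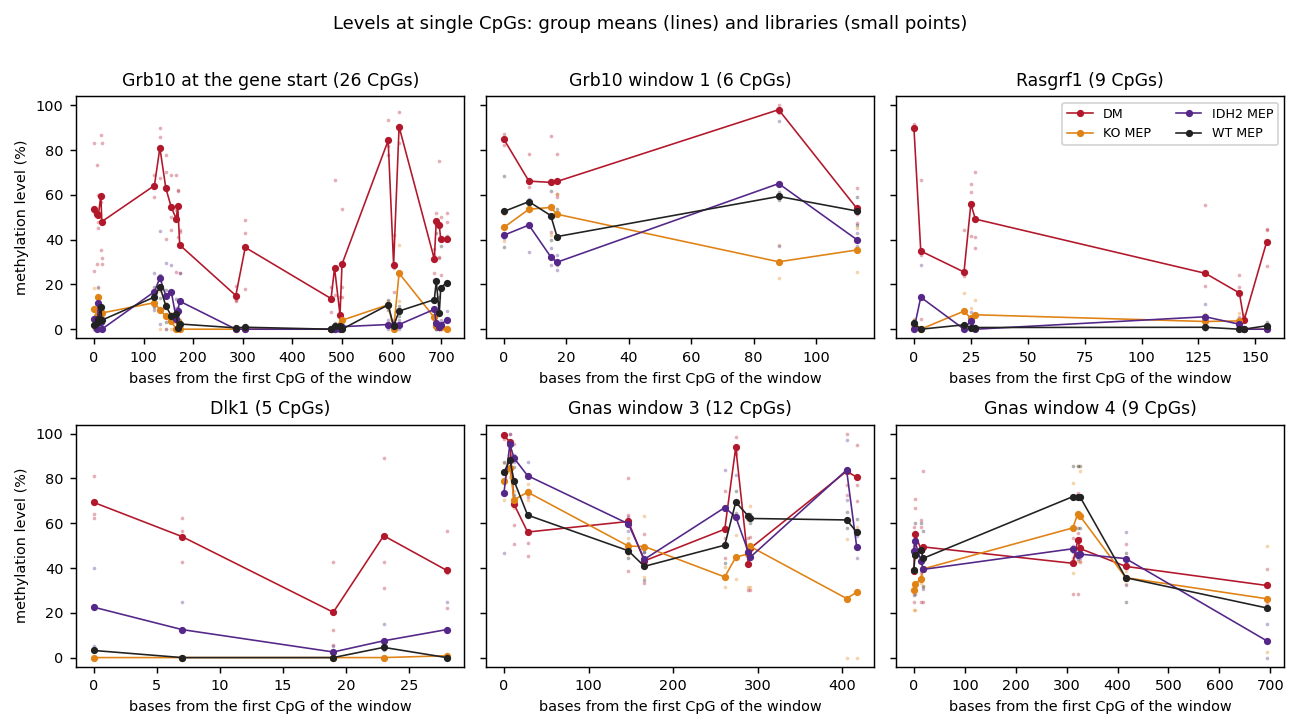
Methylation level (%) at single CpGs of 6 windows against the distance in bases from the first CpG, as means of DM, KO MEP, IDH2 MEP and WT MEP (large points and lines) and libraries (small points). In the 26 CpGs at the Grb10 gene start DM means ranged from 6.35% to 90.5%, against 0% to 21.4% in WT MEP, while in Gnas window 4 the DM means of 32.2% to 55.4% lay within the WT MEP means of 22.2% to 71.9%.

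Slc38a4, an amino acid transporter, was measured in an intron 5916 bp from its start (chr15:96880001-96881000, 3 CpGs). It had 96.1%, 88.6% and 90.5% in DM, 77.7% and 68.5% in KO MEP, 58.6% and 63.1% in IDH2 MEP, and 66.7% and 42.3% in WT MEP. DM was 30.9 points above IDH2 MEP (adjusted p = 0.00722) and 18.7 points above KO MEP, which did not pass (adjusted p = 0.0589). All DM libraries were above all the others, the next highest being IDH2 GMP replicate 2 at 80.5%.

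In 5 other genes or gene pairs with a germline region the DM means stayed between 35% and 65%. Peg10 and Sgce, a retrotransposon-derived gene and a sarcoglycan that share a start region (chr6:4697001-4698000, 8 CpGs), had 40.5%, 37.2% and 37.9% in DM, 9.67% and 28.4% in KO MEP, 54.8% and 31.3% in IDH2 MEP and 28.5% and 49.9% in WT MEP. Nnat, a small membrane protein gene inside Blcap (chr2:157385001-157386000, 6 CpGs), had 44.1%, 38.5% and 37.3% in DM, 40.8% and 20.4% in KO MEP, 35.3% and 70% in IDH2 MEP and 34.3% and 46.8% in WT MEP. In both the DM libraries lay inside the range of the MEP libraries. The window in the Inpp5f intron (chr7:135831001-135832000, 3 CpGs, upstream of an internal start of this inositol phosphatase gene) had 48.3%, 33.5% and 35.5% in DM, 4.55% and 42.9% in KO MEP, 40% and 29.5% in IDH2 MEP and 51.3% and 30.7% in WT MEP. Commd1 and Zrsr1, a splicing factor gene inside a Commd1 intron (chr11:22871001-22872000, 4 CpGs), had 52.4%, 46.3% and 25.8% in DM, 31.4% and 33.3% in KO MEP, 43.7% and 45.3% in IDH2 MEP and 36.8% and 50.7% in WT MEP. Impact, a regulator of translation (chr18:13131001-13132000, 7 CpGs), had 34.1%, 39.2% and 35.1% in DM, 3.45% and 48.9% in KO MEP, 23.7% and 6.57% in IDH2 MEP and 40.1% and 36.7% in WT MEP. None of the DM differences from KO MEP or IDH2 MEP at these 5 windows passed, with adjusted p between 0.0893 and 1. At Impact a second marked window (chr18:13148001-13149000, 3 CpGs) had 48.4%, 60.4% and 44.4% in DM, 75% and 31.1% in KO MEP, 72% and 44.6% in IDH2 MEP and 28% and 36.6% in WT MEP, with no call. Unmarked germline windows spread as widely: near the start of Airn, the antisense RNA inside Igf2r (chr17:12934001-12935000, 3 CpGs), DM had 44%, 27.8% and 48.8%, KO MEP 40.7% and 23.3%, IDH2 MEP 25% and 14.8%, and WT MEP 11.1% and 20.6%. Over the 12 libraries outside DM that window ranged over 7.94% to 66.7%. A second Commd1 and Zrsr1 window (chr11:22872001-22873000, 11 CpGs) was steadier, with 31.2%, 28.9% and 30.3% in DM, 33% and 27.8% in KO MEP, 33.9% and 18.5% in IDH2 MEP and 33.9% and 28.4% in WT MEP.

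Single libraries were under 10% at some of these regions. KO MEP replicate 1 held 29 methylated of 300 reads at Peg10 and Sgce (95% Wilson interval 6.82% to 13.5%), 3 of 66 at Inpp5f (1.56% to 12.5%) and 7 of 203 at Impact (1.68% to 6.95%). IDH2 MEP replicate 2 held 19 of 289 at Impact (4.25% to 10.04%). No DM, KO GMP or IDH2 GMP library was below 10% at any marked window. The WT libraries were not either, but their own values chose these windows. Reads carry no molecular identifiers, so these intervals cover counting error only. The median within-group SD was 10.9 points over the 16 marked windows, 8.23 over all 1487 windows of that wild type range and 3.32 over the other 37 imprinted windows.

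Nap1l5, a nucleosome assembly protein gene without introns, was lower in DM. Its coding window (chr6:58856001-58857000, 4 CpGs) was unmarked, at 74.7% ± 8.66 over the 4 WT libraries. DM had 60.8%, 50.2% and 30.1%, KO MEP 52.3% and 58.8%, IDH2 MEP 93.8% and 81.8%, and WT MEP 69.9% and 87.6%. DM fell by 40.8 points relative to IDH2 MEP (adjusted p = 0.00505) and by 31.7 points relative to WT MEP (adjusted p = 0.0204). The second call was lost without DM replicate 3 (-23.2 points, adjusted p = 0.0909) or WT MEP replicate 2 (-22.9 points, adjusted p = 0.183), and with limma (adjusted p = 0.0957), edgeR (adjusted p = 0.108) or a replicate block (adjusted p = 0.0842). KO MEP was close to DM, with a difference of -8.53 points (adjusted p = 0.515).

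Kcnq1, a potassium channel gene whose intron holds the imprinting centre of its cluster, had no marked window. An intron window (chr7:150598001-150599000, 3 CpGs) had 63.5%, 61.1% and 60.7% in DM, 81.7% and 76.8% in KO MEP, 79.9% and 75.7% in IDH2 MEP and 72.8% and 75.7% in WT MEP. All 12 other libraries were above the DM ones. Among the imprinted windows this held for 1 (1.89%), near the 1.77% of all tested windows. DM fell by 17.4 points against KO MEP (adjusted p = 0.00341, and 0.0983 without KO MEP replicate 1, at -15.0 points), by 16 against IDH2 MEP (adjusted p = 0.00970) and by 12.4 against WT MEP (adjusted p = 0.0417). None of these calls held with limma (adjusted p = 0.0579, 0.0888 and 0.211) or edgeR (adjusted p = 0.0869, 0.127 and 0.262), and those against IDH2 MEP and WT MEP were lost with the compared groups alone (adjusted p = 0.0530 and 0.109). The call against WT MEP was also lost with a replicate block (adjusted p = 0.122) and without any 1 of the 5 libraries compared (-11 to -13.9 points, adjusted p 0.0717 to 0.183). Another intron window (chr7:150351001-150352000, 3 CpGs) had 99.3%, 96.9% and 97.2% in DM against 92.9% and 79.5% in IDH2 MEP, a difference of 11.6 points (adjusted p = 0.00685). Without IDH2 MEP replicate 2 it was 4.86 points (adjusted p = 0.345), and without IDH2 MEP replicate 1 it was 18.3.

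Among the genes of secondary or distant control, Igf2, a fetal growth factor, rose in DM in an intron (chr7:149850001-149851000, 4 CpGs within 22 bases). DM libraries had 65.6%, 41.9% and 48.0%, KO MEP 1.65% and 4.30%, IDH2 MEP 16.7% and 14.1%, and WT MEP 5.0% and 13.5%. The differences were 48.9 points from KO MEP (adjusted p = 1.11e-05), 36.4 from IDH2 MEP (adjusted p = 0.000315) and 42.6 from WT MEP (adjusted p = 4.75e-05). IDH2 libraries of both cell types were also higher than KO libraries here, with 14.9% ± 2.25 and 3.30% ± 1.77 (SD, n = 4 each), a difference of 11.6 points (adjusted p = 0.0175). That smaller call was lost without KO GMP replicate 1 (10.7 points, adjusted p = 0.0987), KO MEP replicate 1 (10.9 points, adjusted p = 0.0941) or IDH2 GMP replicate 2 (10.4 points, adjusted p = 0.0593). A window at another start of Igf2 (chr7:149845001-149846000, 11 CpGs) had 11.2% ± 2.94 in DM, 3.35% ± 1.32 in KO MEP, 1.23% ± 0.969 in IDH2 MEP and 3.99% ± 0.424 in WT MEP, all differences being under the 10 points needed for a call.

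Rasgrf1, a Ras exchange factor with a paternally methylated control region far upstream, was measured downstream of its start (chr9:89805001-89806000, 9 CpGs). DM had 38.3%, 50.0% and 39.0%, KO MEP 0.633% and 5.67%, IDH2 MEP 0.820% and 4.20%, and WT MEP 1.02% and 1.05%. No library outside DM exceeded 7.69%. DM was 39.3 points above KO MEP (adjusted p = 1.58e-05), 39.9 above IDH2 MEP (adjusted p = 2.63e-05) and 41.4 above WT MEP (adjusted p = 2.22e-06). The gain was uneven along the stretch, with DM means of 3.94% to 89.9% at single CpGs.

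Dlk1, which codes for a transmembrane protein of the Notch ligand family, was covered at its start (chr12:110691001-110692000, 5 CpGs within 30 bases). DM had 37.8%, 46.1% and 57.8%, KO MEP 0.446% and 0%, IDH2 MEP 4.67% and 18.3%, and WT MEP 1.64% and 1.41%. The differences were 47.0 points from KO MEP (adjusted p = 1.62e-05), 35.8 from IDH2 MEP (adjusted p = 0.00189) and 45.7 from WT MEP (adjusted p = 3.56e-05). A window upstream (chr12:110688001-110689000, 10 CpGs) had 9.48% ± 4.0 in DM and 1.87% to 3.12% as means of the MEP groups, again below a 10-point difference.

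Rian, a noncoding RNA expressed from the maternal allele of the Dlk1 cluster, was marked in an intron (chr12:110852001-110853000, 3 CpGs). DM had 74.4%, 79.7% and 84.0%, KO MEP 28.8% and 55.5%, IDH2 MEP 33.7% and 24.0%, and WT MEP 49.1% and 66.9%. DM stood above all 12 others. It exceeded IDH2 MEP by 50.5 points (adjusted p = 0.000254) and KO MEP by 37.2 points (adjusted p = 0.00823), which became 23.9 points (adjusted p = 0.0828) without KO MEP replicate 1. IDH2 libraries of both cell types averaged 35.9% ± 13.4 and WT libraries 61.7% ± 8.46 (SD, n = 4 each), 25.8 points apart; without any 1 of 6 of these 8 libraries (all but WT MEP replicate 1 and IDH2 GMP replicate 2) that difference lost its call, at -19.8 to -28.2 points, and it did so with limma (adjusted p = 0.120), edgeR (adjusted p = 0.169) and the compared groups alone (adjusted p = 0.0698).

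Mkrn3, a ubiquitin ligase gene, was higher in DM than in KO MEP and IDH2 MEP. Its coding window (chr7:69564001-69565000, 5 CpGs) had 98.8%, 99.4% and 98.4% in DM, 72.4% and 69.6% in KO MEP, 63.6% and 81.3% in IDH2 MEP and 90% and 93.1% in WT MEP. DM was 27.8 points above KO MEP (adjusted p = 0.00183) and 26.4 above IDH2 MEP (adjusted p = 0.00268, and 17.6 points without IDH2 MEP replicate 1, adjusted p = 0.0152). The 7.29 points above WT MEP did not pass (adjusted p = 0.116). Over both cell types IDH2 averaged 69.7% ± 8.65 and WT 92.1% ± 3.34 (SD, n = 4 each), a fall of 22.4 points (adjusted p = 0.0149). It was lost without WT GMP replicate 2 (-20.5 points, adjusted p = 0.0585), WT MEP replicate 2 (-21.6 points, adjusted p = 0.0506) or IDH2 GMP replicate 1 (-20.2 points, adjusted p = 0.102), and with limma (adjusted p = 0.0554) or edgeR (adjusted p = 0.0769). KO libraries averaged 73.8% ± 11.1, and their 18.3 points below WT missed the threshold (adjusted p = 0.0661).

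Neither Cdkn1c nor Magel2, the last marked genes, gave a DM call against KO MEP or IDH2 MEP. Cdkn1c, a cyclin-dependent kinase inhibitor, was measured upstream of its start (chr7:150651001-150652000, 6 CpGs), with 24.6%, 33.1% and 21.7% in DM, 34.9% and 27.0% in KO MEP, 37.6% and 34.5% in IDH2 MEP and 37.4% and 45.6% in WT MEP. DM was 4.49 points below KO MEP (adjusted p = 0.430) and 9.61 below IDH2 MEP (adjusted p = 0.142), and neither passed. Magel2, a coregulator of ubiquitin ligases, had 54.4%, 74.3% and 56.5% in DM, 69.1% and 62.3% in KO MEP, 58.5% and 50.2% in IDH2 MEP and 61.7% and 60.5% in WT MEP in its coding window (chr7:69522001-69523000, 5 CpGs). No comparison passed there.

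Among the other genes Zim1, a zinc finger gene of the Peg3 cluster, rose at its start (chr7:6649001-6650000, 5 CpGs). DM had 43.5%, 29.6% and 36.4%, while the 12 other libraries lay between 3.47% and 9.80%. The differences were 28.6 points from KO MEP (adjusted p = 2.35e-05), 28.1 from IDH2 MEP (adjusted p = 7.91e-05) and 29.8 from WT MEP (adjusted p = 2.11e-05). Calcr, the calcitonin receptor gene (chr6:3714001-3715000, 5 CpGs in an untranslated first exon), had 15.6%, 27.0% and 22.5% in DM, 3.84% and 5.14% in KO MEP, 31.0% and 7.26% in IDH2 MEP and 6.09% and 13.1% in WT MEP. DM was 17.2 points above KO MEP (adjusted p = 0.0209), a call lost without KO MEP replicate 1 (16.6 points, adjusted p = 0.172), DM replicate 2 (14.6 points, adjusted p = 0.0714) or DM replicate 3 (16.8 points, adjusted p = 0.0616), and with edgeR (adjusted p = 0.0501). IDH2 over both cell types averaged 20.7% ± 11 and KO 5.45% ± 1.29 (SD, n = 4 each), 15.3 points apart (adjusted p = 0.0212). Leaving out any 1 of KO GMP replicates 1 and 2, KO MEP replicate 1, IDH2 GMP replicate 1 or IDH2 MEP replicate 1 ended that call, at 9.36 to 15.5 points and adjusted p 0.0563 to 0.134, as did limma (adjusted p = 0.0952), edgeR (adjusted p = 0.115), the compared groups alone (adjusted p = 0.0520) and a minimum of 20 reads per CpG (adjusted p = 0.0749).

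**Figure D3:**
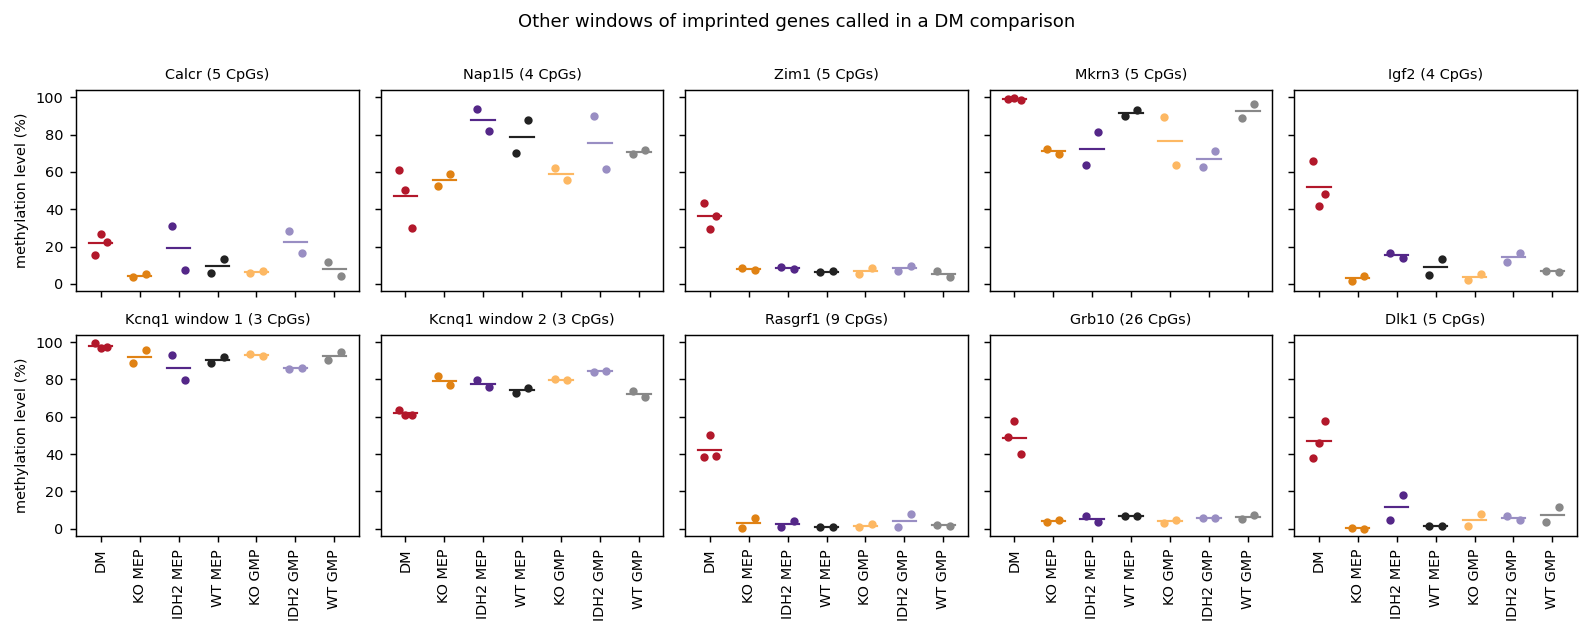
Methylation level (%) per library (points) and group mean (lines) of the 10 unmarked windows called in at least 1 DM comparison. At Zim1, Igf2 (4 CpGs), Rasgrf1, Grb10 and Dlk1 every DM library had at least 29.6% and every other library at most 18.3%, whereas Nap1l5 and Kcnq1 window 2 were lower in DM.

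The remaining windows were mostly unmethylated or fully methylated in every library. The start regions of Copg2, Ube3a, Ppp1r9a, Commd1 and Blcap and the Gs alpha start of Gnas were measured over 3 to 25 CpGs, and no library exceeded 3.51% in them. Coding or intron windows of Peg10, Peg3, Igf2r and Ppp1r9a and an upstream window of Igf2 were at 84.3% or above in all libraries, except that Peg3 had 64.7% in IDH2 GMP replicate 1. None of these was called in any comparison. The other uncalled windows were more variable. A second Nnat window (chr2:157386001-157387000, 5 CpGs) had 4.13% to 15.2% in DM and 5.88% to 37.6% in the 12 other libraries. Downstream of the Cdkn1c start, chr7:150644001-150645000 had 66.7% to 73.0% in DM and 48% to 89.4% in the others, and chr7:150645001-150646000 had 17.4% to 31.2% in DM and 3.23% to 36.3% in the others. The DM libraries thus overlapped the rest in these 3 windows. At the Kcnq1 start chr7:150292001-150293000 had 3.49% to 18.6% in DM and 0% to 12.2% in the others, and the next window 0% to 4.49% in DM and 0% to 2.78% in the others. The Inpp5f start (chr7:135755001-135756000, 7 CpGs) had 0.749% to 2.56% in DM and 0% to 2% in the others. A Zim1 coding window (chr7:6630001-6631000) had 96.4% to 99.0% in DM and 82.9% to 100% in the others, and a window upstream of Dlk1 (chr12:110686001-110687000) 81.4% to 84.0% in DM and 76.8% to 93.0% in the others.

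Counted over all 53 windows, 11 were higher and 1 was lower in DM than in KO MEP, 20.8% and 1.89% of them, while 11.9% and 1.84% of all tested windows were called in those directions. Against IDH2 MEP 11 were higher and 2 lower, 20.8% and 3.77%, where all windows gave 11.1% and 3.65%. Against WT MEP 10 were higher and 3 lower, 18.9% and 5.66%, where all windows gave 12.8% and 2.11%. Of these, 5 higher and 1 lower were marked windows, and that part is a description. The lower counts against KO MEP and IDH2 MEP were thus near the share of the genome. In 8 windows (15.1%, against 7.75% of all windows) DM was higher in all 3 comparisons, which share the DM libraries: Gnas window 1, Zim1, Igf2, Rasgrf1, Grb10 window 1 and the Grb10 gene start, Dlk1 and Rian. For Grb10 window 1 and Rian the call against WT MEP was lost with limma (adjusted p = 0.135 and 0.140), with edgeR (adjusted p = 0.161 and 0.142) and without DM replicate 3 (16.2 points, adjusted p = 0.0877, and 19.1 points, adjusted p = 0.0506). It was also lost at Grb10 window 1 without WT MEP replicate 2 (13.02 points, adjusted p = 0.203) or with a replicate block (adjusted p = 0.0731), and at Rian without WT MEP replicate 1 (12.5 points, adjusted p = 0.256). In 14 windows (26.4%) all 3 DM libraries were above the 12 others, as in 12.7% of all windows. They were below the 12 others in 1 window (1.89%), as in 1.77% of all windows. The median difference over the 53 windows was 4.59 points from KO MEP, 3.57 from IDH2 MEP and 2.36 from WT MEP, and over all windows 0.349, 0.608 and 1.34 points.

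Called gains lay mainly in windows that were unmethylated or intermediate in WT. Of the 18 imprinted windows under 10% in WT, 6 were higher in DM than in KO MEP (33.3%, against 14.1% of all windows of that level) and 5 than in IDH2 MEP (27.8%, against 12.5%). Of the 5 imprinted windows at 10% to 35%, 0 were higher in DM than in KO MEP or IDH2 MEP. Of all windows of that level 38.3% and 26.2% were. Of the 14 above 65%, 1 was higher than in KO MEP (7.14%, against 3.59%) and 2 than in IDH2 MEP (14.3%, against 6.52%). Of the 16 marked windows 4 were higher than in KO MEP (25%, against 23.6%) and 4 than in IDH2 MEP (25%, against 14.7%). The marked windows were therefore called higher than in KO MEP about as often as any window of intermediate level. None of the 16 was lower in DM than in KO MEP or IDH2 MEP, while 7.06% and 16.7% of all windows of that level were.

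**Figure D4:**
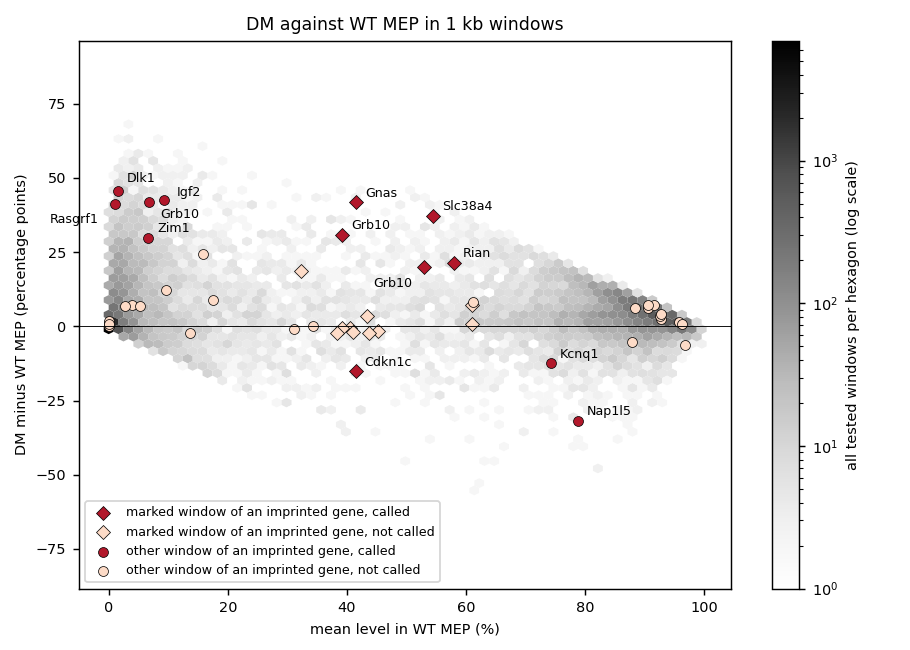
Difference of DM minus WT MEP (percentage points) against the WT MEP mean (%) for all 29251 tested windows (grey hexagons, log colour scale) and the 53 imprinted windows (diamonds for marked, circles for others, dark red where called and pale where not). Of the 13 called imprinted windows, 5 sit below 10% in WT MEP with differences of 29.8 to 45.7 points, 6 are marked windows at intermediate levels, and Nap1l5 and a Kcnq1 intron, at higher WT MEP levels, lie at -31.7 and -12.4 points.

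Few windows were called between the single mutants and WT. Between KO and WT, over GMP and MEP together, 0 of 53 windows were called with the quasi-binomial model, and 9 had an unadjusted p under 0.05; limma and edgeR also called 0, with 3 unadjusted each. Of all windows 1.57% were called. The range of differences over the 53 windows was -18.3 to 14.1 points. Between IDH2 and WT 2 windows, Mkrn3 and Rian, were lower and 0 higher, where 0.66% of all windows were lower and 3.03% higher. The Rian difference was -25.8 points; it is a description, since WT values marked that window. Between IDH2 and KO, Calcr and the Igf2 intron were higher and 0 windows lower, where all windows gave 3.53% and 0.219%. No window was called between WT MEP and WT GMP (1 unadjusted, against 0.116% of all windows called; limma and edgeR called 0, with 2 and 1 unadjusted). The difference of the KO effect between MEP and GMP was called at 0 windows, as was that of the IDH2 effect (0% of all windows for each). Among the 53, 0 and 3 windows had an unadjusted p under 0.05 for these, and limma and edgeR called 0 with the same unadjusted counts.

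Some of the 50 windows of 1 or 2 CpGs, not tested, separated DM, and those named below were chosen after their values were seen. Among all tested windows of the genome, every DM library was above all 12 others in 12.7% and below them in 1.77%. Such separation is thus not particular to imprinted genes. Snrpn codes for a splicing protein, and its start lies in the imprinting centre of the Prader-Willi cluster. At a single CpG just upstream of a Snrpn start DM had 100%, 97.4% and 84.8%, and the other 12 libraries lay between 8.96% and 59.4%. These groups did not overlap. At the other measured Snrpn CpG, in an intron, DM had 50%, 50% and 30%, within the 0% to 70% of the others. At 2 CpGs in the Grb10 window next to window 1 (chr11:11925001-11926000) DM had 94.4%, 81.6% and 100% and the others 23.1% to 73.5%. At 2 CpGs 645 bp downstream of the Slc38a4 start DM had 82.0%, 79.3% and 66.7% and the others 11.4% to 47.8%. DM stood above all others in these regions too. It also did so by small margins at 1 CpG of Blcap and Nnat and at 2 Copg2 CpGs. The DM libraries had at least 96.9% and 96.2% there, and the others at most 96% and 94.7%. A CpG upstream of Nespas in Gnas had 95.1%, 92.6% and 94.1% in DM and 0% to 83.9% elsewhere. In a Kcnq1 intron (chr7:150559001-150560000, 2 CpGs) DM was lower, at 2.35%, 0% and 1.19%, with 7.69% to 18.1% in KO, 42.4% to 60.7% in IDH2 and 13.6% to 27.9% in WT. At another Kcnq1 intron CpG (chr7:150339001-150340000) DM was also lower, at 55.3%, 63.6% and 69.2%, against 86.0% to 100% in the others. At 1 CpG of a CpG-rich Kcnq1 intron window (chr7:150481001-150482000) DM had 20.9%, 16.1% and 41.5%, and the others 0% to 31.25%. The DM libraries overlapped the rest there and in the remaining Kcnq1 windows of 1 or 2 CpGs. H19, Plagl1, Meg3, Dcn and Slc22a18 were represented only here. H19, the noncoding RNA gene downstream of a paternally methylated region, had 96.3%, 90.6% and 76.9% in DM and 70.6% to 94.7% in the others at 2 CpGs within the gene. The Plagl1 start had 35.3%, 35.1% and 46.0% in DM and 0% to 65.4% in the others at 1 CpG. Meg3 had 96.7%, 98.1% and 97.8% in DM and 79.2% to 100% in the others at 1 CpG. Dcn had 89%, 84.2% and 90.8% in DM and 77.1% to 91.4% in the others, and Slc22a18 27%, 19.7% and 26.7% in DM and 15.8% to 46.8% in the others. In these 5 genes the DM libraries overlapped the rest.

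By sequence, the marked windows were CpG-richer than other windows of intermediate level, and so were the other imprinted windows. The median ratio of observed to expected CpGs was 0.630 in the marked and 0.646 in the 37 other imprinted windows. It was 0.334 for all 1487 windows of intermediate level and 0.471 for all tested windows. TGCCGC or its complement GCGGCA, a motif searched on both strands in the whole 1 kb window, occurred in 9 of the 16 marked windows (56.3%), in 17 of the 37 other imprinted windows (45.9%), in 21.5% of the 1487 and in 31.8% of all windows. Of the marked windows 10 lay within 1 kb of an annotated start (62.5%), as did 62.2% of the 37 other imprinted windows and 22.4% of the 1487. Grb10 window 1 held 4 such motifs and Rian and Slc38a4 none, so windows with and without it were among those higher in DM.

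Further imprinted genes, counted in the same way, gave 30 windows of 18 genes, 2 of which are also among the 53. Of these 30, 5 were higher and 0 lower in DM than in WT MEP (12.8% and 2.11% of all windows), 4 and 0 than in KO MEP (11.9% and 1.84%), and 3 and 2 than in IDH2 MEP (11.1% and 3.65%). The higher counts were near the share of the genome. Zdbf2, a zinc finger gene imprinted in the mouse, was higher in all 3 comparisons in a window of 10 CpGs (chr1:63319001-63320000), with 56.7%, 66.0% and 68.9% in DM and 3.81% to 18.4% in the other 12 libraries. Peg12 (chr7:69608001-69609000) likewise had 53.3%, 54.2% and 67.6% in DM and 18.3% to 38.1% elsewhere. Asb4 and Osbpl5 were instead higher in IDH2 than in WT and KO. Asb4 (chr6:5333001-5334000, 5 CpGs) had 20.6% to 43.6% in IDH2 and 0.694% to 5.0% in KO and WT, and DM had 0.990% to 2.71%. Osbpl5 (chr7:150898001-150899000, 3 CpGs) had 0% in all 3 DM libraries, 7.93% to 24.2% in IDH2 and 0% to 3.14% in KO and WT. Genes that keep or set imprints, among them Zfp57, Dnmt1, Uhrf1 and the Tet genes, gave 29 windows, of which 1 was called in 1 comparison. That window, at the start of the chromatin protein gene Smchd1 (chr17:71824001-71825000, 14 CpGs), had 1.01% to 4.14% in IDH2 and 11.7% to 13.8% in WT (adjusted p = 0.000481). DM with 3.49% to 3.96% and KO with 0.928% to 4.65% lay at the IDH2 level, with differences from WT under 10 points.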

How the data were processed

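Methylation was profiled by reduced representation bisulfite sequencing in 15 libraries of 7 groups. Reads were aligned with BSMAP 2.74 to mm9, per the submitters' processing notes. The deposited values used are read counts, methylated and total, at each CpG cytosine by strand. The methylation fraction deposited beside them was not used. Trimming, duplicate removal and bisulfite conversion: not given in the sources used here; duplicates would make read counts overstate molecules.

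Strands were summed. CpGs on autosomes covered by 10 or more reads in each of the 15 libraries (241527) were put into 1 kb windows, and windows holding 3 or more were tested. A level is methylated over total reads of a window. Gene spans came from GENCODE vM1. The test was a quasi-binomial logistic model with 7 group means and 8 residual degrees of freedom, its dispersion moderated over windows (prior of 5.33 degrees of freedom, minimum 1), with an F test. Adjusted p-values follow Benjamini and Hochberg, over the 29251 windows of each comparison. Calls needed an adjusted p below 0.05 together with group means 10 points apart or more. The model was tested on simulated data. Alternatives were limma 3.58.1, edgeR 4.0.16, other depths, window sizes, thresholds, marking ranges, fits of the compared groups alone, a replicate block and leaving out libraries. Python 3.11.15 and R 4.3.3 were used.

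The member genes and lists were chosen with earlier results of these data known. Values per library are given, by rule, for each gene's marked window with the most CpGs, for the 10 largest called rises and falls, and for the windows beside the marking bounds. Other windows, among them those of 1 or 2 CpGs, were chosen after their values were seen. Sequences were read from the mm9 genome, leaving out untranslated exons.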

Additional observations from a re-analysis of the deposited data

Results flagged for a closer look

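Single libraries stood apart from the other 3 of their genotype, over both cell types, in 4 of the 48 sets of 4 libraries at the marked windows, where chance gives about 1 in 20. At Gnas window 3 IDH2 GMP replicate 2 had 60.8%, with 63.5% to 63.7% in the other IDH2 libraries. At the marked Commd1 and Zrsr1 window IDH2 GMP replicate 2 had 58.3%, with 43.0% to 45.3% in the others. At Rian KO MEP replicate 1 had 28.8%, with 55.5% to 60% in the other KO libraries, and WT MEP replicate 1 had 49.1%, with 64.7% to 66.9% in the other WT libraries.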

How the results depend on the processing

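No result changed direction under any alternative. DM calls at Dlk1, Rasgrf1, Zim1, the Igf2 intron and the Grb10 gene start held in every alternative run for each of the 3 DM comparisons, as did Mkrn3 against KO MEP and IDH2 MEP. That was 13 alternatives per comparison at Zim1, Igf2 and Grb10. It was 12 at Dlk1, Rasgrf1 and Mkrn3, whose windows were not tested with at least 20 reads per CpG. With at least 20 reads per CpG, called windows were 0 for IDH2 against WT, 8 for DM against WT MEP and 8 for DM against IDH2 MEP, and 4 windows were marked, for which DM minus WT MEP, KO MEP and IDH2 MEP averaged 3.52, 17.5 and 7.04 points in place of 9.85, 13.6 and 11.3. Windows of at least 1 CpG (103) gave 4 calls for IDH2 against WT, 4 for IDH2 against KO, and 22, 21 and 23 for DM against WT MEP, KO MEP and IDH2 MEP, and a mean DM minus KO MEP of 16.9 points. A difference of 25 points left 1 and 0 calls for IDH2 against WT and against KO. limma gave 0, 1 and 7 calls, and edgeR 0, 1 and 7, for IDH2 against WT, IDH2 against KO and DM against WT MEP. The compared groups alone gave 1 call for each of the first 2. With 500 bp windows DM minus WT MEP averaged 7.38 points, and a marking range of 40% to 60% left 9 windows.

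Leaving out 1 library gave 0 to 1 calls for KO against WT, 0 to 4 for IDH2 against WT, 0 to 3 for IDH2 against KO, 7 to 13 for DM against WT MEP (8 without DM replicate 3 and 7 without WT MEP replicate 2), 8 to 15 against KO MEP and 11 to 16 against IDH2 MEP. Marked windows numbered 14 to 17, and their mean DM difference was 8.31 to 11.1 points from WT MEP, 12.1 to 13.9 from KO MEP and 8.71 to 13.2 from IDH2 MEP.

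With the replicate number as a block, the counts were 9 for DM against WT MEP, 13 against KO MEP, 13 against IDH2 MEP, 3 for IDH2 against KO, 2 for IDH2 against WT and 0 for KO against WT. Differences between replicates 1 and 2 correlated over windows at 0.510 between IDH2 GMP and IDH2 MEP, 0.361 between WT GMP and WT MEP and -0.0397 between KO GMP and KO MEP. The numbers were taken as names only. GMP and MEP libraries of 1 number may thus not be independent, though comparisons over both cell types and SDs with n = 4 count them so. With GMP and MEP libraries that share the first part of their title summed, 4 calls of IDH2 against WT or KO held and 0 were lost. Windows hold 33 to 1606 reads per library, which limits the precision of the shallow ones, and the causes of lost calls were not tested.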
